A study of Mus musculus with 2 samples.

Results

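Cluster 3 is a group of basal-like corneal epithelial cells in single-cell RNA sequencing of mouse cornea, and its members are the cells to which the deposited table of cells gives cluster number 3. It held 2674 of 28867 cells, 1789 of the 16450 cells of the unwounded library (UW) and 885 of the 12417 cells of the wounded library (W). The study asked how limbal stem cells and their surroundings change as the corneal epithelium heals. It reports more cells of each condition after quality control than were deposited. Totals and shares here are of the deposited cells. Corneas of 4 unwounded mice were pooled into UW, and those of 4 mice taken 24 h after the central epithelium had been scraped off were pooled into W, so each condition is 1 library. Per the study's methods the animals were male and 6 to 8 weeks old, and neither the methods nor the labels name a strain or any allele. The epithelium and the tissue beneath it were digested apart and then combined, so stromal and immune cells were sequenced together with the epithelium. The study used the Souporcell algorithm to identify samples among the cells of its mice, and cells were not split by mouse here. With no second library of either condition, effects of wounding, of the animals and of library preparation cannot be told apart.

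Basal cells are the innermost layer of the corneal epithelium and the only one in contact with the basement membrane. They are anchored by hemidesmosomes, in which the integrin α6β4 and the collagen XVII of the cell bind laminin of the basement membrane, and plectin and the epithelial form of dystonin tie that complex to keratin filaments inside the cell. When the cornea is scraped, cells at the wound's edge loosen these anchors, flatten and slide over the bared stroma, and they lay down new laminin as they go.

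A unique molecular identifier (UMI) marks 1 captured RNA molecule, and the values below start from UMI counts. The cells of cluster 3 held 32774937 UMIs in UW and 22574116 in W. The median cell had 18682 UMIs and 3948 genes in UW, and 23906 UMIs and 4387 genes in W. The median share of UMIs from the mitochondrial genome was 3.02% in UW and 2.58% in W. Cluster 3 made up 10.9% (10.4 to 11.4) of the cells of UW and 7.13% (6.68 to 7.59) of those of W, with exact Clopper-Pearson 95% intervals. Of the cells of the 10 epithelial clusters it made up 13.3% (12.7 to 13.8) of 13501 in UW and 10.4% (9.76 to 11.1) of 8507 in W. Its share was therefore smaller in W on either base, although genes that define a cluster can differ between libraries. Barcodes shared between the libraries numbered 52 over all cells, and 1 of them was in cluster 3 in both. Counted over both libraries, 13 cells of cluster 3 had a barcode that was also found in the other library.

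For each library, the counts of all cells of the cluster were added up gene by gene and scaled to 1000000 UMIs (written CPM). Parentheses give exact Poisson 95% intervals. These intervals cover counting error only. A log2 ratio is that of CPM in W over UW, so 1 means 2-fold higher in W. A gene passed the filter with at least 10 CPM in either library and at least 20 counts over both, and it is called higher or lower when it differed by at least 2-fold. A sum of 0 was set at 3 counts for a lower bound of the fold. CPM of different genes are compared with each other only to name the most abundant members of a list.

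The label of the cluster names *Itgb4* and *Lamb3*, and the markers given for it are *Col17a1*, *Itgb4*, *Lamb3*, *Krt18* and *Ppbp*. In W, all 5 were at a higher level in cluster 3 than in any other of the 10 epithelial clusters. *Krt18*, a keratin of simple epithelia, stood at 297 CPM in cluster 3 of W against 33.4 CPM in cluster 11, the next highest. *Ppbp*, which encodes a chemokine that attracts neutrophils, stood at 322 CPM against 63.5 CPM in cluster 6. In UW the order differed. *Col17a1* ranked 2 of 10 in cluster 3, at 1108 CPM behind 1217 CPM in cluster 11, and the other 4 markers each ranked 4 of 10. *Krt18* and *Ppbp* were close to absent there, with 75 and 11 counts in all (2.29 and 0.336 CPM). *Itgb4* and *Lamb3* were therefore highest in cluster 3 in W, while in UW cluster 9 had more of both, with 174 CPM of *Itgb4* and 84.7 CPM of *Lamb3*. The authors' clusters were made from the same genes, so these ranks are descriptions and no check of the label.

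General markers of corneal and basal epithelium were present. *Krt12*, the keratin of the corneal epithelium, stood at 29083 CPM in UW and 11905 CPM in W, and *Krt5*, a keratin of basal layers, at 6928 CPM in UW and 5679.8 CPM in W. *Trp63*, which encodes the transcription factor p63 of basal cells, stood at 133 CPM in UW and 115 CPM in W and ranked 2 of 10 in both libraries. *Krt15*, a keratin often used to mark the limbus, was lower in cluster 3 than in every other epithelial cluster of both libraries. It stood at 389 CPM in UW and 881 CPM in W, against 23158 and 21102 CPM in cluster 5, the highest. *Krt5* ranked 5 of 10 in UW and 6 of 10 in W, and *Krt14*, another basal keratin, 4 and 3, so neither set the cluster apart. Cluster 3 thus combined *Krt12*, *Krt5* and *Trp63* with little *Krt15*.

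The 15 leading genes of cluster 3 were taken by the smaller of their folds, in UW and in W, over the other epithelial clusters pooled, among genes with at least 50 CPM in the cluster in both libraries. Because clusters were made from the same genes, these folds are descriptions. *Itga3*, the α chain of a laminin-binding integrin, led with 5.39-fold in UW and 4.40-fold in W. *Itgb4*, the β chain of the hemidesmosome integrin, followed with 6.56-fold and 4.17-fold, and *Col17a1* with 4.78-fold and 3.62-fold. *Lama3*, the α chain of the hemidesmosome laminin, came next with 3.54-fold and 6.82-fold. The first 4 places thus all went to genes of attachment to laminin. The others in order were *Igsf8*, *Tnfrsf12a*, *Tns4*, *Gja1*, *Pthlh*, *Dkk3*, *Gm12840*, *Pdpn*, *Nrg1*, *Itgb1* and *Fermt1*. Against the other epithelial clusters one by one, cluster 3 was highest in UW for 2 of the 15, *Pthlh* and *Fermt1*, and in W for all but *Nrg1*. Several of these also act at contacts with the matrix: *Tns4* encodes a tensin that binds integrin tails, *Fermt1* a kindlin that activates integrins, and *Itgb1* the β1 chain shared by many matrix receptors. *Gja1* encodes the gap junction protein connexin 43, *Nrg1* a ligand of ErbB receptors and *Pthlh* a hormone-like peptide. *Tnfrsf12a*, a receptor of the tumour necrosis factor family, was 4.68-fold higher in W within the cluster, with 74.9 CPM in UW and 351 CPM in W, and *Pthlh* 3.05-fold higher, with 247 CPM in UW and 755 CPM in W.

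By the correlation across genes of levels centred on the mean of the 10 epithelial clusters, the clusters most like cluster 3 were 11, 8 and 9, in that order in both libraries. Pearson's r was 0.87, 0.59 and 0.58 in UW over 8863 genes, and 0.75, 0.59 and 0.50 in W over 8653 genes, where genes are not independent replicates. The deposited table also holds each library's own clustering, made before the libraries were joined. In UW, 1744 of the 1789 cells (97.5%) lay in 1 cluster of that library's own, and they made up 93.1% of it. In W, 853 of the 885 cells (96.4%) lay in 1 own cluster as well, but they made up 46.2% of its 1845 cells, and 402 others belonged to cluster 11. Cluster 3 was therefore a group of its own in UW, and in W it shared its group with other cells before the libraries were joined.

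Within cluster 3, 7719 genes passed the filter. Of these, 805 (10.4%) were higher in W, 741 (9.6%) were lower, and 6173 lay within 2-fold. The median log2 ratio over all of them was −0.02. These shares and this median are the background for the gene lists below, whose counts and medians are over the members that passed, with a gene at 0 in a library set at its bound. A level of 10 CPM in either library was enough to pass, and 664 genes passed through W only and 593 through UW only. The lists of low genes could thus pass through their higher library, and without the filter, where 15066 genes had a ratio, 2792 were higher and 1872 lower. The bar chart of the lists gives the counts for each list.

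**Figure D1:**
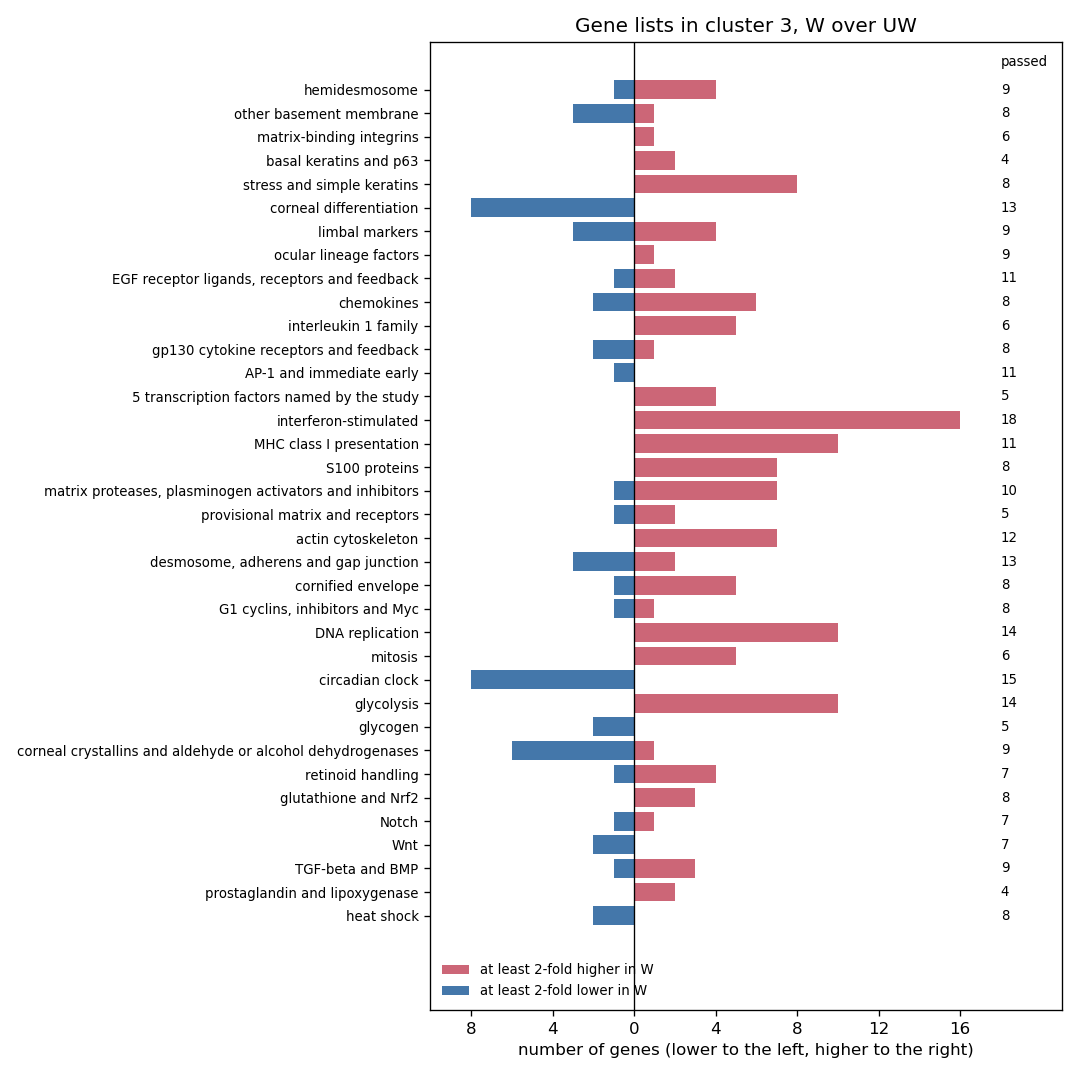
Number of genes of each list at least 2-fold higher in W (red, to the right) or lower in W (blue, to the left) in cluster 3, with the number that passed the filter at the right. The interferon-stimulated list had 16 of 18 genes higher and the corneal differentiation list 8 of 13 lower, beside 10.4% and 9.6% of all genes that passed.

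All 9 genes of the hemidesmosome list passed, of which 4 were higher in W and 1 lower, with a median log2 ratio of 0.56. Laminin genes were among the most different. *Lamb3*, for the β3 chain, had 875 counts in UW and 4632 in W, or 26.7 CPM in UW and 205 CPM in W, which is 7.69-fold higher. *Lama3*, for the α3 chain, stood at 63.8 CPM (61.1 to 66.6) in UW and 231 CPM (225 to 238) in W, or 3.62-fold higher. *Lamb3* and *Lama3* were thus both higher in W by more than 2-fold. Of the receptor, *Itgb4* stood at 134 CPM (130.1 to 138) in UW and 351 CPM (344 to 359) in W, 2.62-fold higher, while its partner *Itga6* stood at 536 CPM (528 to 544) in UW and 673 CPM (663 to 684) in W and did not reach 2-fold. *Col17a1* was within 2-fold too, at 1108 CPM (1097 to 1119) in UW and 1636 CPM (1619 to 1652) in W. On the side of the keratin filaments, *Plec* (plectin) was almost level, at 366 CPM (359 to 372) in UW and 348 CPM (341 to 356) in W. *Dst* (dystonin) went the other way, from 598 CPM (589.8 to 607) in UW to 187 CPM (181 to 193) in W, a log2 ratio of −1.68. *Cd151*, a tetraspanin that binds laminin receptors, stood at 59.2 CPM in UW and 80.7 CPM in W. Genes of laminin and of 1 receptor chain were thus higher in W, while the linker *Dst* was lower.

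**Figure D2:**
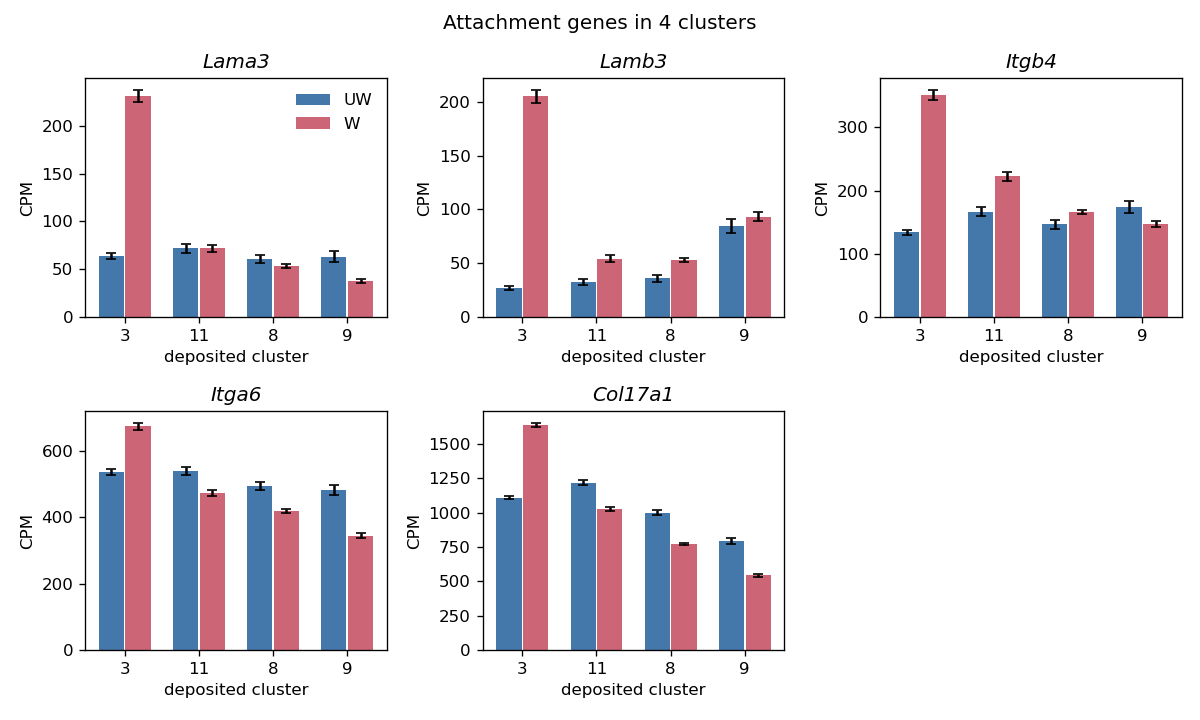
Levels in CPM of *Lama3*, *Lamb3*, *Itgb4*, *Itga6* and *Col17a1* in cluster 3 and in the 3 epithelial clusters most like it, with UW in blue, W in red and exact Poisson 95% intervals as bars. The W bar of cluster 3 is the highest of its panel for each of the 5 genes.

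The same genes were then compared in clusters 11, 8 and 9, the differences between clusters being given without a test. The log2 ratio of *Lamb3* was 2.94 in cluster 3, against 0.74, 0.56 and 0.14 in clusters 11, 8 and 9. That of *Lama3* was 1.86 against −0.00, −0.20 and −0.74. For *Itgb4* it was 1.39 against 0.42, 0.18 and −0.24. In UW *Lama3* stood at 63.8, 71.9, 60.7 and 62.9 CPM in clusters 3, 11, 8 and 9. In W the same clusters stood at 231, 71.7, 53.0 and 37.7 CPM. Cluster 3 of W was therefore apart from its nearest neighbours in *Lama3*, where cluster 3 of UW was not. *Dst* differed less between them, with −1.68 in cluster 3 and −1.66, −1.34 and −0.97 in the others. Of the 805 genes higher in cluster 3, 551 were also at least 2-fold higher in cluster 11, 412 in cluster 8 and 336 in cluster 9, while 6, 43 and 114 had a ratio of the other sign. Of all 7719 genes, 9.1%, 6.7% and 6.6% were 2-fold higher in these clusters and 7.9%, 7.7% and 6.5% lower. Of the 741 genes lower in cluster 3, 501, 471 and 324 were 2-fold lower in clusters 11, 8 and 9, and 2, 3 and 30 had the other sign. More than 0.5 of the genes called in cluster 3 thus differed by 2-fold the same way in clusters 11 and 8, and fewer did in cluster 9.

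Shares of cells with at least 1 UMI depend on depth, so each cell was thinned at random to 5000 UMIs and the 81 UW and 20 W cells with fewer were left out, leaving 1708 and 865. Free RNA in the droplets gives UMIs in cells that do not express a gene, so the share in cluster 0, where the stromal markers are highest and these epithelial genes should be missing, is given beside it. The median depth before thinning was 18682 and 23906 UMIs in cluster 3 of UW and W, and 11853 and 17588 in cluster 0. *Lamb3* was seen in 13.6% of cells of cluster 3 in UW and 48.0% in W, against 0.733% and 1.70% in cluster 0. Without thinning its shares in cluster 3 were 33.6% and 79.2%. *Itgb4* was seen in 43.4% (41.0 to 45.8) and 71.1% (68.0 to 74.1), against 1.90% and 4.45% in cluster 0, and without thinning in 72.6% and 91.9%. *Col17a1* was seen in 98.5% and 98.0% of cells of cluster 3 and in 13.2% and 21.7% in cluster 0, and without thinning in 99.8% and 99.7% of cluster 3. *Lamb3* was thus found in more cells in W, and collagen XVII in nearly all cells of either library.

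Other basement membrane genes went both ways. Of the 13 listed, 8 passed, of which 1 was higher in W and 3 lower, with a median log2 ratio of −0.32. Without the filter 3 were higher and 4 lower of 12 with a ratio, with a median of 0.01. *Lamb1*, the β chain of other laminins, stood at 60.1 CPM in UW and 19.0 CPM in W, 3.17-fold lower. *Nid1*, which encodes the linker nidogen, stood at 22.0 CPM (20.4 to 23.7) in UW and 4.43 CPM (3.60 to 5.39) in W, 4.97-fold lower, and *Col4a5*, a collagen IV chain, at 15.3 CPM in UW and 5.58 CPM in W, 2.73-fold lower. *Hspg2* (perlecan) was the one of the 8 higher in W, at 4.21 CPM in UW and 14.2 CPM in W, and *Col7a1*, which encodes the collagen of anchoring fibrils, was within 2-fold at 17.4 CPM in UW and 23.9 CPM in W. No laminin gene of this second list was thus higher in W. Of 10 matrix-binding integrin genes, 6 passed and 1 was higher in W, with a median of 0.42. That was *Itga3*, at 50.1 CPM (47.7 to 52.6) in UW and 103 CPM (99.0 to 107) in W, 2.06-fold higher, which was just under 2-fold with TMM or size factors, 2 other ways of scaling the libraries. *Itga2*, a collagen receptor chain, stood at 17.8 CPM in UW and 27.8 CPM in W, a log2 ratio of 0.65, while its ratios in clusters 11, 8 and 9 were −1.45, −1.47 and −1.57. *Itga2* was therefore at least 2-fold lower in W in each of the 3 like clusters and somewhat higher in cluster 3, a difference that was not tested. *Itgb1* was level, at 182 CPM in UW and 184 CPM in W.

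All 8 keratins of the stress and simple epithelial list were higher in W, with a median log2 ratio of 2.53, and 4 of them passed the filter through W only. *Krt18* stood at 2.29 CPM (1.80 to 2.87) in UW and 297 CPM (289.9 to 304) in W, 129.8-fold higher, and its usual partner *Krt8* at 1.95 CPM in UW and 46.2 CPM in W, 23.6-fold higher. *Krt6a*, a keratin of wounded epithelia, stood at 518 CPM (509.8 to 525) in UW and 4074 CPM (4048 to 4101) in W, 7.87-fold higher, and *Krt16*, with which such keratins pair, at 1088 CPM in UW and 2968 CPM in W, 2.73-fold higher. *Krt19* stood at 7.48 CPM in UW and 102 CPM in W and *Krt17* at 80.9 CPM in UW and 341 CPM in W. Keratins of simple and of wounded epithelia were thus both higher in W. In the like clusters 11, 8 and 9 the log2 ratios of *Krt8* were 0.63, −0.34 and 1.11, against 4.56 in cluster 3, and those of *Krt18* were 3.90, 1.52 and −0.62, against 7.02. The basal keratins and p63 split, with 2 of 4 genes higher, 0 lower and a median of 0.48. *Krt14* stood at 1256 CPM (1244 to 1268) in UW and 14011 CPM (13962 to 14059.8) in W, 11.2-fold higher, while *Krt5*, the keratin it pairs with, was within 2-fold. *Krt14* reached 100% of thinned cells in W and 75.8% in UW, but it was also seen in 97.4% of cells of cluster 0 in W and 22.7% in UW, so its share tells little, and unthinned it was 88.3% and 100% in cluster 3. *Krt15* was 2.27-fold higher.

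Most genes of corneal differentiation that passed were lower. Of 14 listed, 13 passed, of which 8 were lower in W and 0 higher, with a median of −1.29. *Krt12* was 2.44-fold lower, and *Aldh3a1*, an aldehyde dehydrogenase so abundant that it is called a corneal crystallin, stood at 10231 CPM (10197 to 10266) in UW and 3984 CPM (3958 to 4010.0) in W, 2.57-fold lower. *Lypd2* and *Dapl1* stood at 5274 CPM in UW and 1419 CPM in W, and 2208 CPM in UW and 467 CPM in W. *Dsg1a*, a desmosomal cadherin of upper layers, stood at 217 CPM (212 to 222) in UW and 14.1 CPM (12.6 to 15.7) in W, 15.4-fold lower, the largest difference of the list. *Clu*, *Slurp1*, *Aqp5*, *Upk3bl* and *Muc4* were within 2-fold, though *Upk3bl* was just over 2-fold lower with TMM or size factors. Of 9 crystallin and dehydrogenase genes that passed, 6 were lower and 1 higher, with a median of −1.19. *Aldh1a1* stood at 134 CPM (129.7 to 138) in UW and 8.37 CPM (7.22 to 9.65) in W, the lowest ratio of this list, and *Adh1*, an alcohol dehydrogenase, at 577 CPM in UW and 105 CPM in W, 5.49-fold lower. The exception was *Aldh1a3*, which makes retinoic acid from retinal, at 38.7 CPM (36.6 to 40.9) in UW and 674 CPM (663 to 685) in W, 17.4-fold higher. The related dehydrogenases *Aldh1a1* and *Aldh1a3* thus lay on opposite sides. Factors of the ocular lineage were mostly level: of 9 that passed, *Klf7* alone was at least 2-fold higher, just under 2-fold with TMM or size factors, and none was lower, with a median of 0.08. *Pax6*, the master regulator of the eye, stood at 294 CPM in UW and 229 CPM in W, and *Klf4* at 863 CPM in UW and 930.0 CPM in W. Most of the corneal differentiation genes that passed were thus lower, while *Pax6* and *Klf4* lay within 2-fold.

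Markers used for the limbus went both ways. Of 12 listed, *Abcb5* was not in the table and 9 passed, of which 4 were higher in W and 3 lower, with a median of −0.57. Without the filter 6 of 11 were higher and 3 lower, with a median of 1.36, so the sign of the median depended on the filter. *Procr*, which encodes the endothelial protein C receptor, stood at 30.8 CPM in UW and 139 CPM in W, 4.52-fold higher, and *Cd63*, a tetraspanin, at 12.6 CPM in UW and 47.3 CPM in W. *Igfbp5*, which binds insulin-like growth factors, stood at 206 CPM in UW and 37.5 CPM in W, 5.49-fold lower, and *Abcg2*, a drug efflux pump, at 21.6 CPM in UW and 4.16 CPM in W, 5.18-fold lower. *Ifitm3* (higher) and *Socs3* (lower), called as well, are given with their pathways below. *Gpha2*, a marker of quiescent limbal cells, was also higher, at 42.2 CPM in UW and 108 CPM in W in cluster 3, against 1946 and 1412 CPM in cluster 9 and 821 and 4206 CPM in cluster 0. The levels of *Gpha2* in cluster 3 were thus below those of the stromal cluster in both libraries.

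Of the genes that reached 100 CPM in UW or W, the 12 with the highest log2 ratio were *Dynap*, *Ppbp*, *Csn3*, *S100a8*, *Fxyd5*, *Krt18*, *Ifi27l2a*, *S100a9*, *Ifitm3*, *Akr1b8*, *Upp1* and *Bst2*. *Dynap*, which encodes a dynactin-associated membrane protein, stood at 0.183 CPM (0.0672 to 0.398) in UW and 202 CPM (197 to 208) in W, 1106-fold higher. *Csn3*, the gene of the milk protein κ-casein, stood at 0.244 CPM (0.105 to 0.481) in UW and 103 CPM (98.7 to 107) in W, and *Fxyd5*, which encodes a regulator of the sodium pump and of adhesion, at 0.580 CPM (0.349 to 0.905) in UW and 112 CPM (108 to 117) in W. *Akr1b8*, an aldo-keto reductase, stood at 5.37 CPM in UW and 177 CPM in W and *Upp1*, uridine phosphorylase, at 4.88 CPM in UW and 152 CPM in W. In UW these genes lay near or under 10 CPM except for *Ifitm3*. The 12 with the lowest ratio were *Aldh1a1*, *Dsg1a*, *Ces1d*, *Pygl*, *Socs3*, *Hlf*, *Gyg*, *Ncoa4*, *Igfbp5*, *Adh1*, *Cdo1* and *Gsta2*. *Ces1d*, a carboxylesterase, stood at 159.5 CPM (155 to 164) in UW and 13.6 CPM (12.1 to 15.2) in W, 11.7-fold lower, *Cdo1*, which breaks down cysteine, at 551 CPM in UW and 109 CPM in W, and *Ncoa4*, which delivers ferritin for breakdown, at 179 CPM in UW and 31.6 CPM in W.

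Of 12 chemokine genes 8 passed, of which 6 were higher in W and 2 lower, with a median of 4.34. Of these 8, 4 passed through W only and 2 through UW only, and without the filter 9 of 12 were higher and 2 lower. The 3 highest ratios, of *Cxcl3*, *Ppbp* and *Cxcl2*, were those of neutrophil attractants. *Ppbp* stood at 0.336 CPM (0.168 to 0.601) in UW and 322 CPM (315 to 329.8) in W, 960.2-fold higher. *Cxcl2* stood at 0.671 CPM (0.421 to 1.02) in UW and 93.4 CPM (89.4 to 97.5) in W, 139-fold higher, and *Cxcl1* at 11.5 CPM in UW and 68.2 CPM in W, 5.93-fold higher. *Cxcl3* had 0 counts in UW, where 3 counts would be 0.0915 CPM, and 98.9 CPM (94.8 to 103) in W, at least 1080.2-fold higher. The 2 that were lower act on lymphocytes and monocytes: *Cxcl10* stood at 13.4 CPM in UW and 5.76 CPM in W and *Cx3cl1* at 21.3 CPM in UW and 8.06 CPM in W. *Ccl2*, which attracts monocytes, had 10 counts in UW and 475 in W, 69.0-fold higher, beside 861 CPM in cluster 0 of W, and *Cxcl16*, which attracts T cells, stood at 31.6 CPM in UW and 104 CPM in W. The genes higher in W thus included attractants of neutrophils and of other cells, while *Cxcl10*, also a target of interferon, was lower. *Ppbp* was seen in 0.293% (0.0951 to 0.682) of thinned cells in UW and 22.0% (19.2 to 24.9) in W, against 0% and 1.64% in cluster 0, and without thinning in 0.447% and 34.9%. *Cxcl2* was seen in 0.351% and 12.4% (10.2 to 14.8), no more often than in cluster 0 with 0.388% and 12.9%, and without thinning in 36.7% of W. In cluster 13 of W, where neutrophil markers were highest, *Cxcl2* stood at 23503 CPM and *Ppbp* at 11.4 CPM. *Ppbp* was thus higher in cluster 3 than in cluster 13 and *Cxcl2* lower, and the part of RNA from other cells in either was not tested.

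Of 11 genes of the interleukin 1 family 6 passed, and 5 were higher in W, with a median of 3.80. *Il1a*, an alarm signal held in keratinocytes, stood at 12.9 CPM (11.7 to 14.2) in UW and 148 CPM (143 to 153) in W, 11.5-fold higher. *Il33*, another alarm signal, stood at 0.854 CPM (0.568 to 1.23) in UW and 19.8 CPM (18.1 to 21.8) in W, and *Il1f9*, the gene of interleukin 36γ, at 0.305 CPM in UW and 13.4 CPM in W. *Il1b* stood at 0.763 CPM in UW and 12.8 CPM in W, beside 2736 CPM in cluster 13 of W, and *Il18* was level at 31.8 CPM in UW and 36.0 CPM in W. Of the 6, 4 passed through W only, and without the filter 9 of 11 were higher and none lower. Receptors and feedback genes that share gp130 were less uniform: of 8 that passed, 1 was higher and 2 lower, with a median of −0.79. *Socs3* stood at 433 CPM (426 to 441) in UW and 43.2 CPM (40.5 to 46.0) in W, 10.0-fold lower, and *Lifr*, a receptor chain of leukaemia inhibitory factor, at 54.6 CPM (52.1 to 57.1) in UW and 10.2 CPM (8.96 to 11.6) in W, 5.33-fold lower. *Lif* itself was higher, at 5.31 CPM in UW and 16.2 CPM in W, and *Osmr*, the oncostatin M receptor chain, stood at 73.3 CPM in UW and 41.3 CPM in W. The ligand *Lif* and its receptor chain *Lifr* thus lay on opposite sides.

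Of 14 genes around the EGF receptor 11 passed, of which 2 were higher and 1 lower, with a median of 0.39. Of the 11, 1 passed through W only, and without the filter 3 of 14 were higher and 1 lower. *Areg* (amphiregulin), a ligand, stood at 13.2 CPM in UW and 314 CPM in W, 23.8-fold higher, and *Tgfa*, another, at 4.21 CPM (3.54 to 4.97) in UW and 24.5 CPM (22.5 to 26.6) in W, 5.82-fold higher. *Egfr* itself stood at 105 CPM (101 to 108) in UW and 49.4 CPM (46.6 to 52.4) in W, 2.12-fold lower, and the ligand *Hbegf* was level at 247 CPM in UW and 266 CPM in W. Of the ligands, *Areg* and *Tgfa* were thus higher while the receptor was lower. Of 4 prostaglandin and lipoxygenase genes that passed, *Ptgs2*, which encodes the inducible cyclooxygenase, stood at 7.60 CPM (6.68 to 8.60) in UW and 111 CPM (107 to 116) in W, 14.7-fold higher, and *Ptges* at 18.9 CPM in UW and 52.6 CPM in W, with a list median of 0.87. Of the 4, 1 passed through W only, and without the filter 4 of 7 were higher and none lower, with a median of 1.48. The constitutive cyclooxygenase gene *Ptgs1* was level, at 36.9 CPM in UW and 40.7 CPM in W.

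Interferon-stimulated genes were higher almost throughout. Of 20 listed, 18 passed and 16 were higher in W, with none lower and a median of 3.58. Of these 18, 9 passed through W only, and without the filter 18 of 20 were higher and none lower. *Ifitm3*, which blocks entry of viruses into cells, stood at 53.5 CPM (51.0 to 56.1) in UW and 2482 CPM (2462 to 2503) in W, 46.4-fold higher. *Ifi27l2a* stood at 8.63 CPM (7.66 to 9.70) in UW and 845 CPM (833 to 858) in W, 97.9-fold higher, and *Bst2* (tetherin) at 6.83 CPM in UW and 201 CPM in W, 29.3-fold higher. *Irf7*, a transcription factor of the response, stood at 7.69 CPM (6.77 to 8.70) in UW and 127 CPM (122 to 132) in W, 16.5-fold higher, and *Ifit3*, which binds foreign RNA in a complex with its relatives, at 10.7 CPM in UW and 151 CPM in W, 14.1-fold higher. The exceptions were *Ifit1*, at 88.7 CPM in UW and 102 CPM in W, and *Irf9*, at 19.9 CPM in UW and 34.3 CPM in W, which were within 2-fold. Nearly all of the list was thus higher in W, but *Ifit1* already had a level in UW close to that in W. Of 11 genes of antigen presentation by MHC class I, all passed and 10 were higher, with a median of 1.77. *B2m*, the shared light chain, stood at 46.4 CPM (44.1 to 48.8) in UW and 778 CPM (766 to 789) in W, 16.8-fold higher, and *H2-Q7* at 0.732 CPM (0.469 to 1.09) in UW and 60.9 CPM (57.7 to 64.2) in W, 83.2-fold higher. *Psmb8*, a subunit of the immunoproteasome, stood at 25.7 CPM in UW and 190.1 CPM in W, 7.39-fold higher. Heavy chains, light chain, peptide transporter and immunoproteasome genes were thus all higher, and *Tapbp* alone was within 2-fold.

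Promoters of RefSeq (GRCm38.p6), 300 bases around each gene's start, were at hand for 6115 of the 7719 genes that passed, as 7845 promoters. Each was searched on both strands for the AP-1 motif TGANTCA, the STAT motif TTCNNNGAA, the E-box CACGTG, the D-box TTATGNAA and a pair of GAAA runs 2 bases apart, here called the interferon response motif. The interferon response motif was in 58 of 781 promoters of genes higher in W (7.43%), in 23 of 741 promoters of genes lower in W and in 246 of all 7845 (3.14%). Of the 15 promoters of the interferon-stimulated list, 8 held it. The AP-1 motif was in 10.4% of promoters of genes higher, 4.59% of those lower and 5.09% of all. The STAT motif was in 7.04%, 6.34% and 6.37%, the E-box in 7.55%, 9.99% and 10.6%, and the D-box in 2.82%, 2.70% and 2.07%. The interferon response and AP-1 motifs were thus more frequent among promoters of genes higher in W than among all promoters, and the other motifs differed less. A match is a run of letters and not a bound site. *Ifit1*, which was within 2-fold, held the interferon response motif 2 times, as did *Oas1a* and *Ifitm3*, which were higher. *Cxcl10*, which was lower, held it 1 time. The promoters of 3 genes of the interferon-stimulated list that were higher in W are printed as examples, because each held the interferon response motif more than 1 time, with the matches in capitals: *Isg15* (chr4:156200769-156201068, minus strand), *Bst2* (chr8:71537423-71537722, minus strand) and *Ifit3* (chr19:34583279-34583578, plus strand).
Isg15 promoter: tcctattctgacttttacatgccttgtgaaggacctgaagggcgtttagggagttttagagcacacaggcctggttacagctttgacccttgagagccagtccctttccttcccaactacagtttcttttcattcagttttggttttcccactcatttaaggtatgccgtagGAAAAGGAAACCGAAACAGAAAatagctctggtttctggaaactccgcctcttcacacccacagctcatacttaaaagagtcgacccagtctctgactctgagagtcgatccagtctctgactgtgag
Bst2 promoter: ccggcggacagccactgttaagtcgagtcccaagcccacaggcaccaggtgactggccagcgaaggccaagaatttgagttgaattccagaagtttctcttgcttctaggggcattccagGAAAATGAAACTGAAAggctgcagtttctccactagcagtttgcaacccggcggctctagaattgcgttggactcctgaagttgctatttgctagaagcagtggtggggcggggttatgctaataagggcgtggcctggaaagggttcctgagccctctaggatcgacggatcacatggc
Ifit3 promoter: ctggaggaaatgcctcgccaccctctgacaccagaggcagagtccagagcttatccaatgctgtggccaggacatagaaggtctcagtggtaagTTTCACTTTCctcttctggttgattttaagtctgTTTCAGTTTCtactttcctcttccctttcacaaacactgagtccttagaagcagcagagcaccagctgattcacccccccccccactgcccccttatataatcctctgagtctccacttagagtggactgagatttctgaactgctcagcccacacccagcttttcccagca

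The AP-1 motif is printed in the same way for the marker *Ppbp* (chr5:90768268-90768567, plus strand), for the matrix protease gene *Mmp10* (chr9:7502092-7502391, plus strand) and for the cornified envelope gene *Sprr1b* (chr3:92438730-92439029, minus strand), all of which were almost silent in UW.
Ppbp promoter: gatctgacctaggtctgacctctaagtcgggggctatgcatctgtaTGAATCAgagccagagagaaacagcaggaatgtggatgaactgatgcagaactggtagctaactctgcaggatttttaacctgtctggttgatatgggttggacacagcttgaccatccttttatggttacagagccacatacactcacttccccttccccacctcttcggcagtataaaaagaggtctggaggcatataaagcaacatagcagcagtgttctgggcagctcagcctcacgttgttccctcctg
Mmp10 promoter: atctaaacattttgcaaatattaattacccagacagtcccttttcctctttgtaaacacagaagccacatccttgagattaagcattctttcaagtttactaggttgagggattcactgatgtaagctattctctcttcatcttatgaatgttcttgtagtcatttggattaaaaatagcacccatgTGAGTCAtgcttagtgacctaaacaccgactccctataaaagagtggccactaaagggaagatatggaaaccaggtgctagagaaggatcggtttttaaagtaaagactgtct
Sprr1b promoter: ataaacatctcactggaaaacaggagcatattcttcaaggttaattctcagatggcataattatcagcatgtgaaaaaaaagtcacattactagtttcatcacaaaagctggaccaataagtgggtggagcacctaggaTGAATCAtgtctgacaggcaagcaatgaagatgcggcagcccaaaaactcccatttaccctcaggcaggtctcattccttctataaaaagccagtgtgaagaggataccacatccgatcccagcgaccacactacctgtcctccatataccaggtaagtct

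None of the 5 motifs was in the 7 promoters of the 4 hemidesmosome list genes that the table of promoters holds. Transcripts of AP-1 subunits and other immediate early genes were themselves not higher in W. All 11 passed, 0 were higher and 1 was lower, with a median of −0.15. *Fos* stood at 1559.9 CPM in UW and 923 CPM in W, *Jun* at 2812 CPM in UW and 3085 CPM in W and *Atf3* at 1544 CPM in UW and 1534 CPM in W. *Egr1* was the one lower, at 259 CPM in UW and 97.8 CPM in W, and *Fosl1*, a subunit linked to wound edges, stood at 59.2 CPM in UW and 87.4 CPM in W. Apart from *Egr1*, these transcripts thus lay within 2-fold, but *Jund*, at 1643 CPM in UW and 847 CPM in W, was more than 2-fold lower with TMM factors, size factors or stricter cells. Of 5 transcription factors that the study names, not for cluster 3 in particular, 4 were higher in W, with a median of 1.89, but the study chose them from these samples, so the count is not independent evidence. *Creb5* stood at 23.9 CPM (22.2 to 25.6) in UW and 88.4 CPM (84.5 to 92.3) in W and *Elk3* at 12.8 CPM (11.6 to 14.1) in UW and 56.1 CPM (53.0 to 59.3) in W, while *Irf7* is given above, *Klf7* stood at 61.5 CPM in UW and 124 CPM in W and *Fosl1* was within 2-fold.

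Of 8 S100 genes, which encode small calcium-binding proteins, 7 were higher in W, with a median of 2.07, and 3 of the 8 passed through W only. *S100a6* was the most abundant, at 7659 CPM (7629 to 7689) in UW and 33878 CPM (33802 to 33954) in W, 4.42-fold higher. *S100a4* stood at 4.58 CPM in UW and 86.4 CPM in W and *S100a11* at 1646 CPM in UW and 5209 CPM in W. *S100a8* stood at 0.671 CPM (0.421 to 1.02) in UW and 178 CPM (173 to 184) in W, 266-fold higher, and *S100a9* at 7.84 CPM (6.91 to 8.86) in UW and 375 CPM (367 to 383) in W, 47.9-fold higher. Both are also abundant in neutrophils, so the neutrophil markers are given beside them. The 5 of that list summed to 8.63 CPM in UW and 556 CPM in W, 2 of 5 passed, and *S100a9* was the most abundant. *Retnlg* had 0 counts in UW and 20 in W, *Csf3r* had 3 and 15, and *Cxcr2* had 1 and 12. Per 1000 counts of *S100a8*, cluster 3 of W had 4.97 counts of *Retnlg* and 3.72 of *Csf3r*. In cluster 13 of W, where neutrophil markers were highest, the same ratios were 17.5 and 30.0. In clusters 11, 8 and 9 of W they were 0, 0.490 and 0.900 for *Retnlg*, and 0.523, 1.63 and 2.48 for *Csf3r*. Cluster 3 thus lay below cluster 13 and above the like clusters in both ratios, and the part that neutrophil RNA has in its *S100a8* and *S100a9* was not tested further.

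Of 15 genes of matrix proteases, plasminogen activators and their inhibitors 10 passed, of which 7 were higher and 1 lower, with a median of 1.95. Of these 10, 5 passed through W only, and without the filter 11 of 14 with a ratio were higher and 1 lower. *Mmp13*, a collagenase, stood at 0.427 CPM (0.234 to 0.717) in UW and 24.1 CPM (22.2 to 26.3) in W, 56.5-fold higher. *Mmp10*, a stromelysin, had 1 count in UW and 446 in W (19.8 CPM), a log2 ratio of 9.34 with a counting interval of 6.85 to 14.65. *Plaur*, the receptor of urokinase, stood at 35.1 CPM (33.1 to 37.1) in UW and 107 CPM (103 to 111) in W and *Plau*, urokinase, at 6.90 CPM in UW and 33.5 CPM in W. *Timp3*, a protease inhibitor bound to the matrix, was the one lower, at 135 CPM (131 to 139) in UW and 52.1 CPM (49.2 to 55.2) in W, 2.60-fold lower. *Mmp3* and *Timp1* were higher as well, at 1.07 CPM in UW and 84.5 CPM in W, and 0.397 CPM in UW and 17.3 CPM in W. In cluster 0 of W, however, *Mmp3* stood at 4515 CPM and *Timp1* at 517 CPM, and the part of stromal RNA in their values in cluster 3 was not tested. *Mmp10* stood at 0.462 CPM and *Mmp13* at 1.14 CPM in cluster 0 of W. Of 5 genes of the provisional matrix and its receptors that passed, 2 were higher and 1 lower, with a median of 0.35, and without the filter 5 of 8 were higher and 1 lower, with a median of 1.32. *Fn1* (fibronectin) stood at 95.3 CPM (92.0 to 98.8) in UW and 18.0 CPM (16.3 to 19.8) in W, 5.30-fold lower, *Thbs1* (thrombospondin) at 13.8 CPM in UW and 29.7 CPM in W and *Spp1* (osteopontin) at 0.244 CPM in UW and 24.4 CPM in W, beside 3178 CPM of *Spp1* in cluster 13 of W. The hyaluronan receptor gene *Cd44* was level, at 424 CPM in UW and 442 CPM in W.

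Of 12 actin cytoskeleton genes that passed, 7 were higher and 0 lower, with a median of 1.09. *Tpm1*, a tropomyosin of actin cables, stood at 9.82 CPM in UW and 49.9 CPM in W, 5.08-fold higher, and *Tagln2*, a transgelin, at 220.4 CPM in UW and 814 CPM in W, 3.69-fold higher. *Lmna*, of the nuclear lamina, stood at 102 CPM (99.0 to 106) in UW and 470.2 CPM (461 to 479) in W, 4.59-fold higher. The actins themselves were within 2-fold, with *Actb* at 4382 CPM in UW and 5383 CPM in W and *Actg1* at 4751 CPM in UW and 3898 CPM in W. *Cfl1* (cofilin), *Tpm3* and *Tpm4* were within 2-fold as well, so the difference covered a part of the list. Of 13 junction genes that passed, 1 of them through W only, 2 were higher and 3 lower, with a median of −0.07. Those lower belong to desmosomes: besides *Dsg1a*, *Dsc3* stood at 832 CPM (822 to 842) in UW and 232 CPM (226 to 239) in W, 3.58-fold lower, and *Dsp* (desmoplakin) at 2023 CPM (2008 to 2038) in UW and 704 CPM (693 to 715) in W, 2.88-fold lower. *Cdh3*, which encodes P-cadherin, stood at 3.97 CPM (3.31 to 4.71) in UW and 24.3 CPM (22.3 to 26.4) in W, 6.13-fold higher, while *Cdh1* (E-cadherin) was level at 154 CPM in UW and 147 CPM in W. The desmosomal gene *Pkp3* (plakophilin) was 2.02-fold higher, with 103 CPM in UW and 208 CPM in W, and just under 2-fold with TMM or size factors, so desmosomal genes did not all go 1 way. Of 8 cornified envelope genes that passed, 5 were higher and 1 lower, with a median of 1.97. *Sprr1b*, a small proline-rich protein that is crosslinked into the envelope, had 1 count in UW and 1682 in W (74.5 CPM), a log2 ratio of 11.25 with a counting interval of 8.77 to 16.56. *Sprr1a* stood at 5.37 CPM in UW and 92.7 CPM in W, *Ivl* (involucrin) at 8.88 CPM in UW and 45.1 CPM in W and *Tgm1*, the crosslinking enzyme, at 14.8 CPM in UW and 44.8 CPM in W. *Ppl* (periplakin) was lower, at 359 CPM in UW and 149.9 CPM in W. Of the 8, 4 passed through W only, and over all 11 members the list summed to 630.5 CPM in UW and 587 CPM in W, so this list did not go 1 way.

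Most DNA replication and mitosis genes that passed were higher in W from low levels, while most genes of G1 lay within 2-fold. Of 14 DNA replication genes that passed 10 were higher, with a median of 1.60, and of 6 mitosis genes that passed 5 were higher, with a median of 2.56. Of these 14 and 6, 9 and 5 passed through W only, and without the filter 11 of 16 and 11 of 13 were higher and none lower. *Mcm3*, a helicase subunit, stood at 5.13 CPM (4.38 to 5.96) in UW and 26.0 CPM (24.0 to 28.2) in W and *Birc5* (survivin) at 1.92 CPM (1.48 to 2.46) in UW and 34.0 CPM (31.6 to 36.5) in W. *Ccnb2*, a cyclin of mitosis, stood at 1.10 CPM (0.769 to 1.52) in UW and 31.8 CPM (29.5 to 34.2) in W. Of 8 genes of G1 cyclins, their inhibitors and Myc that passed, 1 was higher and 1 lower, with a median of −0.10. *Ccnd2*, a cyclin of G1, stood at 331 CPM in UW and 103 CPM in W, 3.23-fold lower, *Ccnd1* at 989 CPM in UW and 553 CPM in W and *Ccne1*, a cyclin of the entry into replication, at 5.40 CPM in UW and 13.2 CPM in W. Most replication and mitosis genes that passed were thus higher, while no D cyclin that passed was. Cells with a UMI of *Mki67* or *Top2a*, after thinning, were 75 of 1708 (4.39%, 3.47 to 5.47) in UW and 94 of 865 (10.9%, 8.87 to 13.1) in W. Cluster 0 had 2.67% and 4.10%, and without thinning the shares in cluster 3 were 11.5% and 32.9%. Clusters 11 and 9 had 9.33% and 9.11% in UW, and 24.6% and 23.3% in W, also more in W. The share in cluster 3 was thus above that of cluster 0 in both libraries beyond counting error. It was below those of clusters 11 and 9, and far below the 83.1% and 72.7% of cluster 8, the cycling neighbour. When every cell with such a UMI at full depth was left out, 857 genes were higher and 792 lower, among them 776 of the 805 and 715 of the 741.

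Clock genes that passed were lower or within 2-fold. Of 16 listed, 15 passed, of which 0 were higher and 8 lower, with a median of −1.10. Without the filter 1 of 16 was higher and 8 lower, with a median of −0.94. *Hlf* and *Dbp*, output factors that bind the D-box, stood at 592 CPM (584 to 600.4) in UW and 76.3 CPM (72.8 to 80.0) in W, and 179 CPM (174 to 183) in UW and 41.2 CPM (38.5 to 43.9) in W, respectively 7.76-fold and 4.34-fold lower. *Nr1d1*, a repressor of the core loop, stood at 356 CPM in UW and 157 CPM in W, and *Ciart*, a repressor as well, at 32.8 CPM in UW and 8.24 CPM in W. The activators *Arntl* and *Clock* stood at 8.60 CPM in UW and 14.3 CPM in W, and 85.2 CPM in UW and 83.4 CPM in W. Several output and repressor genes were thus lower in W, and the activators lay within 2-fold. The labels give no time of day for either library, so time of day and wounding cannot be told apart.

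Genes of glucose use differed between glycolysis and glycogen. All 14 glycolysis genes passed, of which 10 were higher and 0 lower, with a median of 1.32. *Slc2a1*, the glucose carrier, stood at 59.8 CPM (57.2 to 62.5) in UW and 169 CPM (163 to 174) in W, 2.82-fold higher, *Pfkp*, a phosphofructokinase, at 2.01 CPM (1.56 to 2.56) in UW and 37.2 CPM (34.7 to 39.8) in W, 18.5-fold higher, and *Pkm* at 233 CPM in UW and 896 CPM in W. Of 5 glycogen genes that passed 2 were lower and 0 higher, with a median of −0.64. *Gyg* (glycogenin), which primes glycogen, stood at 524 CPM (516 to 532) in UW and 70.7 CPM (67.2 to 74.2) in W, 7.42-fold lower, and *Pygl*, a phosphorylase that breaks it down, at 102 CPM (98.2 to 105) in UW and 9.48 CPM (8.25 to 10.8) in W, 10.7-fold lower. *Gyg* and *Pygl*, at both ends of glycogen's turnover, were thus lower, and the other 3 that passed lay within 2-fold. Of the glycolysis genes, 10 were higher and 4 lay within 2-fold. Of 7 retinoid genes that passed, 1 of them through W only, 4 were higher and 1 lower, with a median of 2.30. *Fabp5*, a carrier of retinoic acid and fatty acids, stood at 321 CPM (315 to 328) in UW and 4856 CPM (4827 to 4885) in W, 15.1-fold higher, and *Crabp2*, another carrier of retinoic acid, at 2.56 CPM in UW and 12.6 CPM in W, 4.93-fold higher. *Cyp26b1*, which breaks retinoic acid down, stood at 46.8 CPM (44.5 to 49.2) in UW and 11.8 CPM (10.5 to 13.3) in W, 3.96-fold lower. Carriers of retinoic acid were thus higher and the gene for its breakdown lower, while the enzymes that make it, *Aldh1a1* and *Aldh1a3*, lay on opposite sides as given above. Of 8 glutathione and redox genes that passed 3 were higher and 0 lower, with a median of 0.81, led by *Hmox1* at 5.64 CPM in UW and 24.1 CPM in W and *Txn1* (thioredoxin) at 1269.7 CPM in UW and 4346 CPM in W.

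In the Notch, Wnt and TGF-β lists a small number of genes was called, beside 10.4% higher and 9.6% lower among all genes that passed. Counts this small do not set a list apart from that background. Of 7 Notch genes that passed, 1 was higher and 1 lower, with a median of −0.34. *Hes1*, a target, stood at 367 CPM (360.2 to 373) in UW and 998 CPM (985 to 1011) in W, 2.72-fold higher, and *Notch3* at 55.8 CPM in UW and 25.8 CPM in W, 2.17-fold lower. The log2 ratio of *Hes1* was 0.26, 0.15 and −0.82 in clusters 11, 8 and 9, against 1.44 in cluster 3. *Hes1* thus stood out from the like clusters, which was not tested. Of 7 Wnt genes that passed 2 were lower and 0 higher, with a median of −0.47: *Tcf7l1*, a transcription factor, had 1312 counts in UW and 361 in W, a log2 ratio of −1.32, and *Sfrp1*, a secreted inhibitor, stood at 188 CPM in UW and 86.9 CPM in W. *Wnt7a* was not in the table. Of 9 genes of TGF-β and BMP signals that passed 3 were higher and 1 lower, with a median of 0.56. *Smad7*, a feedback inhibitor, stood at 20.1 CPM in UW and 75.4 CPM in W, *Smad3*, which carries the signal, at 20.7 CPM in UW and 46.2 CPM in W and *Tgfbr1*, a receptor, at 80.6 CPM in UW and 32.6 CPM in W. Of 8 heat shock genes 2 were lower, *Hspa1b* and *Dnajb1*, with a median of −0.16. Of 88 cytosolic ribosomal protein genes that passed 3 were higher and 1 lower, with a median of −0.19, and of 13 mitochondrial genes 0 and 1, with a median of −0.21.

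Sums over cells do not show how a difference is spread among them, so the UMIs of each list were summed in each thinned cell. The interferon-stimulated list had a median of 1 UMI per cell in UW (5th to 95th percentile 0 to 5) and 28 in W (10 to 53.8). In W, 98.6% of cells lay above the 95th percentile of UW. The S100 list had medians of 58 and 224, with 99.0% of W cells above that mark. The corneal differentiation list had medians of 324 and 130, with 89.9% of W cells below the 5th percentile of UW. These sums thus differed from UW in most cells of the cluster in W, but abundant genes weigh most in them. In W, *Ifitm3* gave 2482 of the 5632 CPM of the interferon-stimulated list and *S100a6* 33878 of the 45631 CPM of the S100 list. In UW, *Krt12* gave 29083 of the 65124 CPM of the corneal differentiation list. Whether each gene of a list differed in most cells is not shown by its sum. The hemidesmosome list, by contrast, had medians of 14 and 17, and 21.5% of W cells lay above the 95th percentile of UW and 5.55% below its 5th. The chemokine list had medians of 0 and 1, with 28.4% of W cells above. For the immediate early list, 15.5% of W cells lay above and 27.5% below the range of UW, with medians of 52 and 38. The summed hemidesmosome and chemokine lists thus stood above the 95th percentile of UW in a minority of W cells. The summed immediate early list was spread more widely in W in both directions. *Col17a1*, within 2-fold, was the most abundant gene of the hemidesmosome list, which also held *Dst*, lower in W. The sum of that list therefore does not show how its genes higher in W were spread. *Lamb3* and *Itgb4* were each seen in more thinned cells of W than of UW, as given above. Free RNA can add UMIs to every cell of a library, and its part in these sums was not tested.

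**Figure D3:**
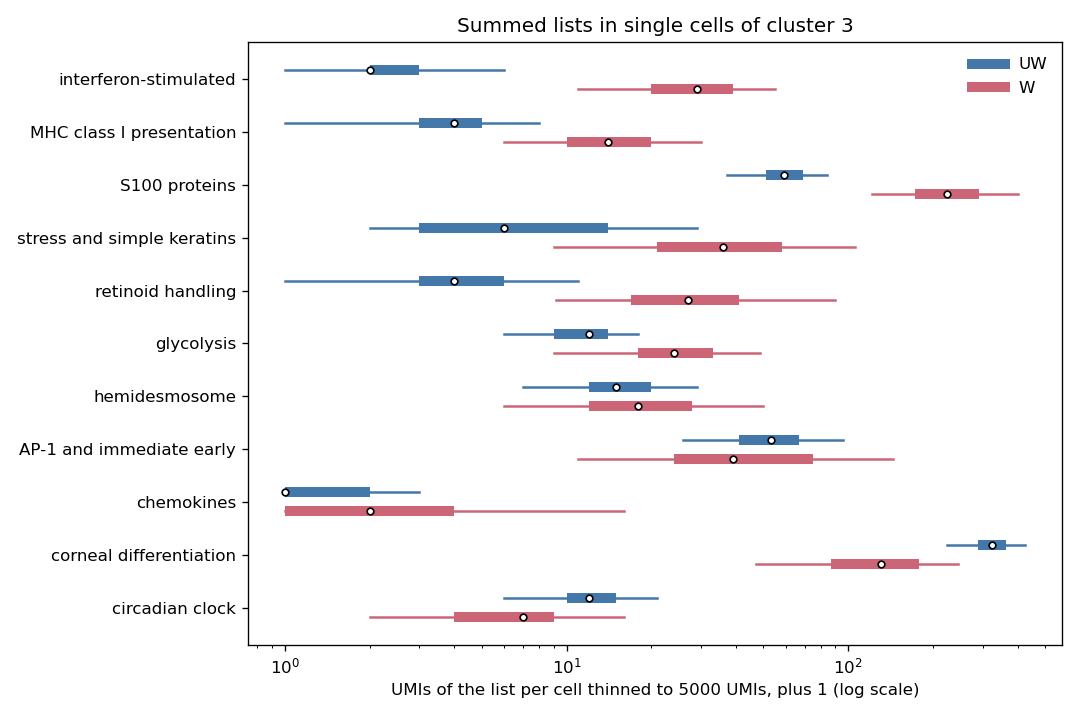
UMIs of 11 gene lists summed in each cell of cluster 3 thinned to 5000 UMIs, plus 1, on a log scale, for UW (blue) and W (red), with the median as a point, the middle 50% as a thick bar and the 5th to 95th percentile as a thin line. The thin lines of UW and W do not overlap for the interferon-stimulated and S100 lists and overlap over most of their length for the hemidesmosome list.

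The genes with the most spread were ranked by the variance of thinned counts over their mean, among genes with a mean of at least 0.1 UMI. The median gene was near 1 in both libraries, 1.04 in UW and 1.08 in W, where counting error alone gives 1. With thinning to 10000 UMIs the medians, over more genes, were 1.05 in UW and 1.09 in W. The ratio depends on depth, and a value near 1 does not show that cells were alike. In UW the 10 highest were *Gm42418*, *Malat1*, *Krt16*, *H3f3b*, *Krt12*, *Krt14*, *Krt15*, *Sfn*, *mt-Atp6* and *Aldh3a1*. In W they were *Malat1*, *Gm42418*, *S100a6*, *Krt16*, *Fabp5*, *Btg2*, *Jun*, *Krt12*, *Cxcl2* and *Atf3*, so 4 genes were in both lists. *Gm42418*, a gene model that overlaps ribosomal RNA, had a ratio of 45.5 in UW and 70.4 in W, and *Malat1*, a nuclear noncoding RNA, reached 171 in W. Both can move with the quality of a cell, which was not tested. *Krt16* ran from 1 to 62 UMIs between the 5th and 95th percentile in W, around a median of 9, and from 0 to 21 in UW. *Cxcl2* had a median of 0 in W and a maximum of 56, so its level came from few cells. Across the 865 thinned cells of W, which share a library and a depth, *Jun* and *Atf3* correlated with r = 0.78, and *Btg2* correlated with *Atf3* at 0.73. Across the 1708 cells of UW the same pairs had 0.42 and 0.32. The mitochondrial gene *mt-Atp6* had r = 0.47 with *Jun* and 0.44 with *Atf3* in W, against 0.13 and 0.07 in UW. These early response genes, named because of their spread in W, thus varied together more in W, where they also varied with *mt-Atp6*, and the part of cell quality in this was not tested.

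The markers *Krt18* and *Ppbp* were found in a part of the cells of W. *Krt18* was seen in 1.17% (0.717 to 1.80) of thinned cells in UW and 34.1% (30.9 to 37.4) in W, against 0.173% and 1.93% in cluster 0, and unthinned in 3.41% and 55.0%. Across cells of W it correlated with *Ppbp* (r = 0.56) and inversely with *Aldh3a1* (r = −0.59), while *Ppbp* and *Aldh3a1* had r = −0.53. *Malat1*, which can move with cell quality, had r = 0.32 with *Krt18*, 0.26 with *Ppbp* and −0.49 with *Aldh3a1*. For *mt-Atp6* these values were −0.28, −0.23 and 0.06, and the part of cell quality was not tested. *Col17a1* and *Itgb4* correlated with each other (r = 0.52) but hardly with *Krt18* (r = 0.07 and 0.11). *Lamb3* lay between, with r = 0.33 to *Krt18* and 0.42 to *Col17a1*. *Krt18* with *Ppbp* and *Col17a1* with *Itgb4* thus formed pairs that correlated little with each other. After these values were seen, the 295 cells of W with a *Krt18* UMI were set beside the 570 without. *Ppbp* was seen in 47.1% (41.3 to 53.0) of cells with *Krt18* and 8.95% (6.73 to 11.6) of those without. *Dynap* was seen in 58.6% (52.8 to 64.3) and 18.8% (15.6 to 22.2), and *Lamb3* in 65.8% and 38.8%. *Itgb4* was seen in 78.6% (73.5 to 83.2) and 67.2% (63.2 to 71.0), and *Col17a1* had means of 10.1 and 8.28 UMIs. *Mmp10* was seen in 12.2% (8.70 to 16.5) and 1.40% (0.608 to 2.75). The mean of *Aldh3a1* was 11.6 UMIs in cells with *Krt18* and 24.6 in those without. *Krt14* differed little, with means of 68.6 and 67.7. *Isg15*, a ubiquitin-like protein of the interferon-stimulated list, was seen in 48.1% (42.3 to 54.0) and 31.4% (27.6 to 35.4). *Ifitm3*, of the same list, was level, seen in 99.7% and 99.3% with means of 12.97 and 12.64 UMIs. In W, cells with a *Krt18* UMI thus more often held UMIs of *Lamb3*, *Ppbp*, *Mmp10* and *Isg15* and held less *Aldh3a1*. *Krt14* and *Ifitm3* were much the same in both groups of cells. For *Ppbp*, *Lamb3* and *Aldh3a1* the split follows from the correlations above, in the same cells, and adds no separate evidence. Cells without a *Krt18* UMI at this depth may still have held the transcript, as the unthinned share was higher.

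Marker lists of other cell types show what else may be in the sums of cluster 3, and their part in the results was not tested. Stromal markers, 6 genes of which all passed and none was called, summed to 323 CPM in UW and 359 CPM in W, led by *Dcn* at 171 CPM in UW and 208 CPM in W, against 40495 and 22050.1 CPM in cluster 0. The sum was close in both libraries, although *Dcn* in cluster 0 was lower in W. General leukocyte markers summed to 0.885 and 38.7 CPM over 3 genes, of which 2 passed, led by *Srgn*, and *Ptprc*, the defining one, stood at 0.0610 CPM in UW and 1.33 CPM in W. Monocyte markers summed to 4.15 and 19.6 CPM over 5 genes, of which 1 passed, led in W by *Lyz2*, with *Fcgr1* and *Csf1r* at 0 in UW. Langerhans cell markers summed to 1.62 and 10.9 CPM over 3 genes, led by *Cd74*, with *Cd207* at 0 in UW, and T cell markers to 0.122 and 0.753 CPM over 4 genes, led by *Cd3g*, with *Trdc* at 0 in UW. None of these 7 genes passed. These leukocyte sums were thus higher in W, and the source of this RNA was not tested. Markers of the corneal endothelium summed to 14.8 and 27.6 CPM over 4 genes, of which *Slc4a11* alone passed and was the most abundant. Markers of vessels and melanocytes summed to 0.915 and 1.37, and 3.11 and 0.709 CPM, led by *Kdr* and *Dct* in UW, with *Tyr* at 0 in both libraries and none of the genes past the filter. Conjunctival markers, of which 4 of 5 passed and all 4 were higher in W, summed to 201 and 785 CPM, led by *Krt17* in W, and *Muc5ac*, the goblet cell mucin, was at 0 in both. Markers of superficial cells, 3 of 5 past the filter and all lower in W, summed to 5634 and 1558 CPM, led by *Lypd2*. Markers of quiescent limbal stem cells, 3 of 4 past the filter and all higher in W, summed to 108 and 2644 CPM, led by *Ifitm3*, which is also an interferon-stimulated gene. Cluster 3 of UW thus held more RNA of superficial markers than that of W.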

How the data were processed

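Droplet libraries of dissociated mouse corneas, 1 of unwounded mice and 1 taken 24 h after wounding, were sequenced on the 10x Genomics platform. With Cell Ranger 3.1.0 the authors obtained UMI counts for every gene in every cell, filtered cells and doublets, clustered them in Seurat and deposited the counts without normalization, with a table of cells that gives library and cluster number. The labels list mm9 as genome build, while the study's methods name a later one. From there, cells with cluster number 3 were taken and their counts were summed per library in Python 3.11.15 with numpy 2.4.6, pandas 2.3.3 and scipy 1.17.1. Gene names were matched to GENCODE M21, in which 19908 of 20198 genes were found, and promoters are those of RefSeq. CPM were computed from the deposited counts with exact Poisson 95% intervals, and shares with Clopper-Pearson 95% intervals. No test was made, since there was 1 library per condition. Named genes are the given markers, the members of the fixed lists, the 12 highest and 12 lowest log2 ratios of genes that reached 100 CPM in UW or W with at least 20 counts (without mitochondrial, haemoglobin and ribosomal protein genes), the 15 leading genes of the cluster and the 10 of highest variance over mean in each library. The members and lists were chosen with earlier results of these data known, and the genes set beside *Krt18* and the neutrophil ratios were chosen after their values were seen, and the lists were counted without the filter after the data were seen. Alternatives were TMM factors (edgeR 4.0.16), median-of-ratios size factors (DESeq2 1.42.0, R 4.3.3), stricter cells (at least 1000 genes, at most 5% mitochondrial UMIs), removal of first-run doublets or of cells with *Mki67* or *Top2a*, thinning, means of single cells, and other filters on low counts. The scripts were tested on made-up counts with known answers.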

Additional observations from a re-analysis of the deposited data

How the results depend on the processing

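The counts of genes higher and lower in W, 805 and 741, stayed within 1.5 times under 7 of 9 alternatives: they were 737 and 806 with TMM factors, 717 and 838 with size factors, 812 and 741 with stricter cells, 799 and 732 without first-run doublets, 857 and 792 without cells with *Mki67* or *Top2a*, 810 and 791 after thinning, and 793 and 763 as means of single cells. They moved further with the filter on low counts, as it sets how many genes enter: 2792 and 1872 of 18041 genes without a filter, and 201 and 170 of 1578 with a filter of 100 CPM. The scalings moved the median log2 ratio of all genes by −0.06 (TMM) and −0.08 (size factors). Of 349 named genes past the filter, those named for their spread included, none that was called changed direction under any of the 7 alternatives that were run on them. By more than 1 in log2, 7 moved with thinning, *Sprr1b* (1 count in UW) the most by −3.44, and 2 without cells with *Mki67* or *Top2a*, *Mmp10* (1 count in UW) the most by −1.65. Of the 200 that were called, at most 8 were no longer 2-fold in any of these alternatives, and at most 6 of the others became 2-fold. Cluster 3 kept 2399 cells with stricter cells and 2660 without first-run doublets, and the same 3 clusters were most like it with stricter cells. With thinning to 10000 UMIs, 9 of the 10 genes of highest variance over mean were the same in each library. Of 698 shares of cells with a UMI, 642 were higher without thinning, beyond their interval. No paired analysis was possible because each condition was 1 pooled library. Counting intervals cover neither animals nor library preparation, the cluster was made by the authors from genes that differ between the libraries, and free RNA was not subtracted.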
